A study of Arabidopsis thaliana with 12 samples.

Results

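The leaves described here came from dcl1-9, an Arabidopsis thaliana mutant with impaired DICER-LIKE1 (DCL1), the enzyme that cuts miRNA precursors. They make up 6 of the 12 arrays of the series, 3 of leaves held in darkness for 6 h and 3 of leaves held in light for the same time, and were chosen by their labelled genotype and treatment. All 27827 probe sets, 1 per gene, were compared between the dark and the light arrays. The other 6 arrays, of wild-type (WT) Columbia leaves under the same pair of treatments, served for the test of where the dcl1-9 response differed. Every group consisted of mature leaves cut from soil-grown plants, labelled as 4 to 5 weeks old where the methods give 5 weeks, all in the Columbia background, and kept on sterile water in dishes, so the light arrays too report on cut leaves. The dcl1-9 allele is a T-DNA insertion that weakens rather than removes DCL1. It was isolated in another ecotype, Wassilewskija, and brought into Columbia by repeated backcrossing. The line was kept as heterozygotes, and mutants were picked by their looks among the offspring.

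A leaf that loses light stops photosynthesis and soon runs short of sugar. In plants the kinase SnRK1, a relative of yeast Snf1 and animal AMPK, is activated under such energy shortage and shifts transcription from biosynthesis and growth to the breakdown of stored carbon, protein and amino acids. MiRNAs are cut by DCL1 from longer MIR transcripts, and guide ARGONAUTE proteins to messenger RNAs that they cleave or hold back from translation. The arrays measured the transcripts of protein-coding genes and of MIR precursors, not mature miRNAs, kinase activity or protein.

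The array values are linear intensities, and their median over probe sets lay between 30.3 and 33.3 on the dcl1-9 dark arrays and between 29.96 and 32.99 on the light arrays. The coefficient of variation among 3 arrays had a median of 14.7% in the dark group and 15.5% in the light group. Light replicate 1 stood slightly apart, with log2 correlations of 0.965 to each of the other light arrays, which correlated at 0.982 with each other. The 6 mesophyll markers, among them the Rubisco subunit gene RBCS1A, summed to 4474 to 4661 in darkness and 6491 to 7551 in light, and 4 of them passed the test as lower. RBCS1A, the brightest of them with means of 3129 in darkness and 3501 in light, did not pass. The 6 root markers and the 6 meristem and flower markers summed to no more than 116 and 79.6 on any dcl1-9 array, and none passed the test. The epidermis and trichome markers summed to 749 to 796 in darkness against 908 to 1081 in light, with 1 of 6 called, the guard cell markers had 0 of 5 called, and the vascular markers had 1 of 6 called. The epidermis call was lost without light replicate 1 or 3 or dark replicate 1 or 3, and the vascular call without light replicate 1 or 2 or dark replicate 3. In whole leaves, fewer cells of a type and less RNA per cell cannot be told apart. DCL1 itself read 67.4, 64.5 and 51.5 on the dcl1-9 dark arrays, against 48.3, 41.8 and 36.5 on the light arrays, and 26.6, 21.3 and 23.1 on WT dark arrays, against 21.4, 21.5 and 17.1 on WT light arrays. The signal was higher in the mutant, and where its probes lie relative to the insertion is not given in the sources used here, so it does not check the labels.

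Darkness changed transcripts in both directions in dcl1-9. In limma's test, with p-values adjusted across the whole array by Benjamini-Hochberg, 2997 genes rose and 3599 fell, together 23.7% of those tested, with 10.8% in the upward and 12.9% in the downward direction. These 2 shares are the background for the counts in gene lists given below. All 3 dark arrays lay above all 3 light arrays for 5481 genes (19.7%) and below them for 5460 (19.6%). Past the test, 357 genes (1.28%) changed by more than 4-fold upward and 421 (1.51%) downward, and 32 (0.115%) and 41 (0.147%) by more than 16-fold. The median log2 difference over all probe sets was 0.06. In what follows a gene rose or fell if it passed this test, a log2 difference is dark minus light from the fit with its standard error, and every gene named as risen or fallen had dark and light arrays that did not overlap. No detection call was used: where the lower group reads under about 20, background holds an unknown share of the signal, so a log2 difference there is set in part by the background.

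Known dark-induced and shade-response genes were among the 12 largest rises. DIN1, a rhodanese-like protein named for its induction in darkness, read 1146, 970.1 and 1817 on the dark arrays, against 8.28, 11.7 and 18.0 on the light arrays (log2 difference 6.71 ± 0.27, adjusted p = 2.6e-09). DIN6, the asparagine synthetase that packs nitrogen into asparagine when carbon is short, read 1369, 1108 and 1861 in darkness, against 10.1, 23.9 and 33.6 in light (6.14 ± 0.37). HFR1, a helix-loop-helix factor that curbs the shade response, read 488, 388 and 501 in darkness, against 4.38, 10.5 and 11.4 in light (5.82 ± 0.28). In each the groups were far apart, and the light arrays differed more among themselves in ratio than the dark arrays did. The wall enzymes BXL1, a beta-xylosidase, and XTH15, which cuts and rejoins xyloglucan, followed with 1476, 1510.3 and 1886 and with 1198, 498 and 1191 in darkness, against 25.02, 50.6 and 52.9 and 18.0, 30.6 and 26.1 in light. GASA6, a gibberellin-regulated peptide, read 854, 655 and 943 in darkness, against 7.77, 25.4 and 32.6 in light. The remaining 6 of the 12 largest rises were SEN5, the zinc finger gene At5g44260, the ERF-type factor gene At1g36060, and At4g27450, At1g33055 and At1g49500, with log2 differences from 4.87 (At1g36060) to 5.78 (At4g27450).

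The 12 largest falls included a plastid sugar transporter, an amylase and a pigment regulator. GPT2, which carries glucose 6-phosphate into plastids, read 21.0, 43.3 and 26.9 on the dark arrays, against 2654, 898 and 815 on the light arrays (-5.43 ± 0.44, adjusted p = 7.5e-07). Its light replicate 1 lay far above the other light arrays, and without that array the difference was -4.88. BAM5, a beta-amylase, read 10.6, 17.0 and 13.9 in darkness, against 775, 517 and 435 in light (-5.36 ± 0.35). MYB75, the activator of anthocyanin synthesis, read 15.01, 12.4 and 13.6 in darkness, against 999, 349 and 264 in light (-5.05 ± 0.57). The neighbouring serine carboxypeptidase-like genes scpl10 and SCPL9 fell by 5.81 and 5.35 on the log2 scale, and VSP1, a storage protein of jasmonate-treated leaves, by 5.36. TBL26, of a family of wall acetylation proteins, read 89.7, 79.2 and 58.6 in darkness, against 2892, 2375 and 2109.7 in light. PCC1, LTL1, BGLU28, FAMT and CSLG3 completed the 12, all with log2 differences between -5.17 (PCC1) and -5.05 (CSLG3). For PCC1 the dark arrays were uneven, at 15.5, 101 and 44.3.

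**Figure D1:**
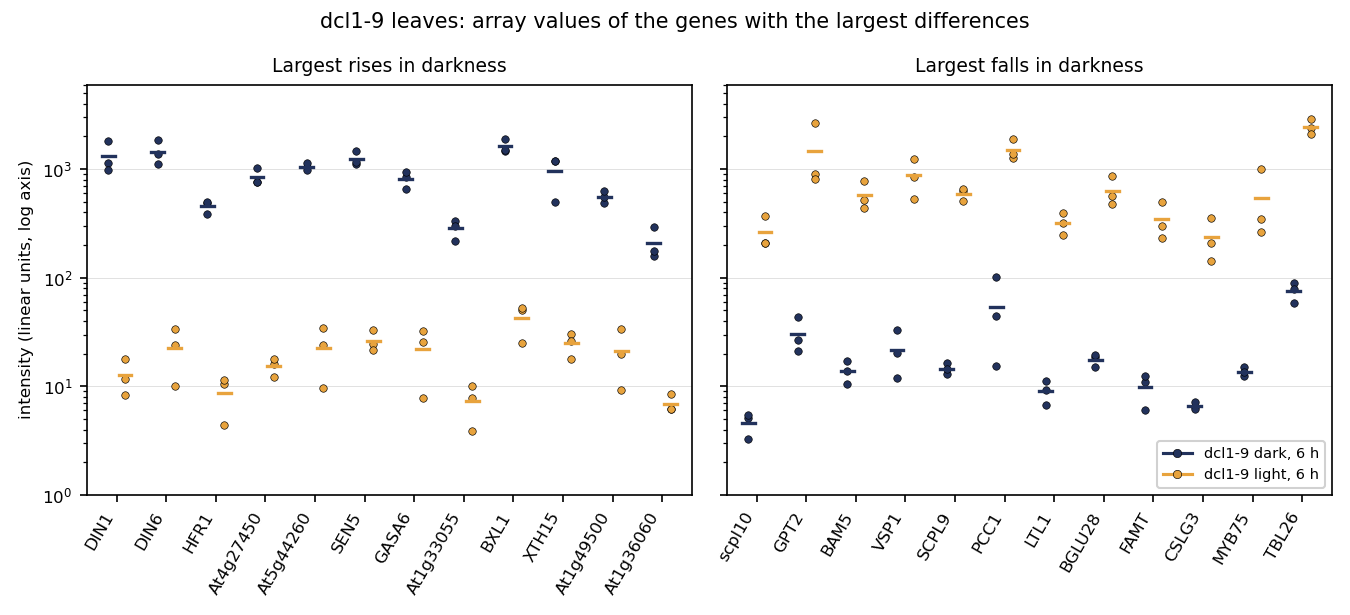
Intensity (linear units, log axis) of the 12 genes with the largest rises and the 12 with the largest falls in dcl1-9 leaves. Points are single arrays, horizontal lines the means of 3 dark arrays and 3 light arrays. For every gene shown the dark and light arrays are apart, as DIN1 at 970.1 or more in darkness against at most 18.0 in light.

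Markers of SnRK1 activity rose almost as a body. Of the 13 genes taken as markers of darkness and SnRK1, 11 rose and 0 fell, with a median log2 difference of 3.20. DIN10, related to raffinose synthases, read 1063, 885 and 1156 in darkness, against 41.4, 139 and 270.5 in light (3.15 ± 0.45), AXP, an auxin-repressed protein, 1012, 1125 and 1268 against 37.0, 112 and 97.4, and SEN5 1106, 1158 and 1473 against 24.3, 21.7 and 32.8. The light arrays of DIN10 spread 6.54-fold, replicate 1 being lowest, while its dark arrays kept within 1.31-fold. The members that did not pass were DIN2, a beta-glucosidase, at 14.4, 35.7 and 13.6 in darkness, against 17.9, 14.5 and 14.6 in light, and DIN9, a mannose phosphate isomerase, at 38.1, 41.3 and 40.5, against 30.2, 31.0 and 37.3. These were chosen as known targets of darkness or SnRK1, so their direction followed from the choice of list.

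Of the 10 genes of the SnRK1 complex and its activating kinases 2 rose and 0 fell (median 0.19). AKINbeta1, a beta subunit that rose, read 1105, 1017 and 1284 on the dark arrays, against 35.8, 88.7 and 122 on the light arrays (3.95 ± 0.32, adjusted p = 6.1e-07), and AKINgamma, the other that rose, 335, 373 and 454, against 65.5, 109 and 131 (1.97 ± 0.23). The catalytic SnRK1.1 read 259, 294 and 267, against 175, 250.3 and 251 (0.30 ± 0.17, adjusted p = 0.25), and SnRK1.2 read 109.9, 115 and 104.7, against 103, 125 and 119.8, and neither passed the test. The regulatory subunits AKINbeta2, AKINbeta3 and SNF4 did not pass either, with log2 differences of 0.10, 0.28 and -0.27. TOR, a growth-promoting kinase, rose to 208, 205 and 185, against 116, 139 and 111 in light, and RAPTOR1A, a partner protein of TOR, fell to 49.7, 37.4 and 30.03, against 87.4, 86.3 and 83.5. Of the 7 genes of the TOR complex and S6 kinases 4 rose and 1 fell. The 4 were 2 without light replicate 2 or 3, or dark replicate 2 or 3. Among bZIP factors that act with SnRK1, bZIP63 and bZIP1 rose (2.97 ± 0.36 and 2.77 ± 0.27), while bZIP11, whose translation sucrose represses, fell to 138, 156 and 103, against 1592, 805 and 724 in light. The class II trehalose-phosphate synthases, proteins of the trehalose pathway without clear enzyme activity, split 6 up and 1 down. TPS9 read 139, 174 and 166 in darkness, against 4.51, 7.07 and 8.86 in light, and TPS11 129.9, 119.6 and 132, against 7.50, 10.3 and 7.65, whereas TPS5 fell to 25.03, 18.7 and 15.7, against 199.6, 104.6 and 98.5.

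Many genes for the breakdown of amino acids rose. Of 28 amino acid catabolism genes 15 rose and 2 fell (median log2 difference 0.77). MCCA, a subunit of methylcrotonyl-CoA carboxylase in leucine breakdown, read 559, 519.9 and 723 in darkness, against 54.7, 84.3 and 101 in light (2.94 ± 0.21). HGO of tyrosine breakdown read 742, 892 and 1194, against 99.6, 133 and 146 (2.89 ± 0.19), and MGL, methionine gamma-lyase, 256, 281 and 389, against 44.4, 27.7 and 28.0 (3.22 ± 0.33). BCAT2, the first step for branched-chain amino acids, had 1 dark array well above the others (139, 142 and 353), against 30.8, 17.4 and 16.7 in light. The 2 members that fell were P5CDH of proline breakdown, at 162, 144 and 139, against 199, 237 and 253, and GABA-T, a transaminase of GABA, at 257, 273 and 303, against 322, 495 and 532, a call lost with 1 array fewer (adjusted p = 0.057 without light replicate 2, 0.066 without light replicate 3, 0.051 without dark replicate 1).

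Of 37 autophagy genes 21 rose and 0 fell, by a median of 0.62 on the log2 scale. ATG8e, one of the ubiquitin-like proteins that coat the autophagosome, rose most, to 385, 425 and 580.1 in darkness, against 15.9, 38.4 and 82.7 in light (3.63 ± 0.43). ATG8h, ATG8f and ATG13a, the last a part of the initiating kinase complex, rose by 1.47, 1.44 and 1.396. In peroxisomal fatty acid breakdown, the acyl-CoA oxidase genes ACX4 and ACX2 rose (2.198 ± 0.22 and 1.61 ± 0.26), while the thiolase KAT5 fell to 15.7, 20.1 and 12.4, against 127, 93.2 and 74.9 in light, so that 4 of 14 genes rose and 1 fell. ORE1 and NAP, NAC factors that promote leaf senescence, read 308, 369 and 384 and 125, 169 and 149 in darkness, against 26.1, 29.4 and 40.2 and 10.4, 16.6 and 15.4 in light. SAG12, the cysteine protease gene of advanced senescence, read 8.63, 11.7 and 7.85 in darkness, against 6.44, 8.27 and 9.89 in light, and did not pass. Of 12 senescence regulators and markers 6 rose and 1, SAG13, fell, a call lost with 1 array fewer (adjusted p = 0.064 without light replicate 1, 0.08 without dark replicate 1, 0.084 without dark replicate 3).

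Most starch genes fell, in breakdown as in synthesis. Of 21 genes of starch breakdown 17 fell and 2 rose (median -1.91), and of 18 of starch synthesis 14 fell and 0 rose (median -1.64). BAM3, the main beta-amylase of leaf starch at night, read 124, 131 and 93.4 on the dark arrays, against 1899, 1585 and 1357 on the light arrays (-3.80 ± 0.26, adjusted p = 1.7e-07). PHS2, a cytosolic glucan phosphorylase, read 176, 194 and 120.9 in darkness, against 2076, 1589 and 1414 in light, and ISA3, a debranching enzyme, 96.3, 96.3 and 90.6, against 1258, 595 and 631. The members that rose were BAM9, which lacks known amylase activity, at 219, 206 and 248 in darkness, against 18.3, 45.1 and 84.4 in light, and BAM1, at 107, 144 and 124, against 66.6, 93.9 and 93.9. The call of BAM1 was lost with 1 array fewer (adjusted p = 0.17 without light replicate 1, 0.15 without dark replicate 2, 0.085 without dark replicate 3). On the side of synthesis, APL3, a large subunit of ADP-glucose pyrophosphorylase, read 83.2, 78.0 and 59.97, against 1219, 812 and 731 (-3.62 ± 0.31), and GBSS1, the amylose synthase, 18.6, 20.7 and 16.7, against 1284, 324 and 283 (-4.72 ± 0.51). Light replicate 1 of GBSS1 lay far above the other light arrays, and without it the difference was -4.03. SS3, a starch synthase, overlapped between treatments at 104.8, 146 and 95.7, against 96.9, 156 and 82.1.

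Sugar transporters moved in both directions, 5 of 18 rising and 6 falling. STP1, a monosaccharide importer of the plasma membrane, rose to 1211, 1306 and 1399.8 in darkness, against 94.1, 138 and 129 in light (3.46 ± 0.15, adjusted p = 2.6e-09), and STP14, a galactose transporter, to 61.3, 68.8 and 101, against 9.77, 17.5 and 20.8. SWEET17, which moves fructose across the vacuole membrane, fell to 37.7, 38.8 and 32.5, against 198, 147 and 149, SWEET4 to 11.1, 17.1 and 14.8, against 77.2, 54.7 and 88.7, and TMT2, a vacuolar sugar importer, to 59.9, 50.6 and 52.3, against 288, 130.0 and 151. SWEET12, a sucrose exporter, rose by 0.85 ± 0.18. SUC2, which loads the phloem, read 286, 230.2 and 189, against 149.8, 352 and 371, the light arrays spreading on both sides of the dark ones.

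Transcripts of carbon fixation fell unevenly. Of 23 Calvin cycle genes 14 fell and 1 rose. RBCS1B, a small Rubisco subunit, read 196, 124 and 180.0 in darkness, against 1312, 1183 and 1171 in light (-2.90 ± 0.21), whereas its relative RBCS1A read 3110.1, 3020.4 and 3255, against 3385, 3590.3 and 3529 (-0.16 ± 0.11, adjusted p = 0.36) and did not pass the test. FBA1, an aldolase, and SBPASE, the bisphosphatase that drives ribulose regeneration, fell by 2.14 and 1.99 on the log2 scale. CP12-3, a small redox linker protein, rose to 26.5, 28.4 and 25.1, against 14.4, 15.1 and 13.8. In photorespiration the glycine decarboxylase subunit GLDP1 fell to 521, 491 and 479, against 1912, 2074 and 1986 (-2.003 ± 0.10), while CAT2, a catalase, rose to 178, 182 and 188, against 122, 80.6 and 102, with 6 of 12 genes lower and 1 higher. The members of multigene families such as RBCS and LHCB1 are similar enough in sequence that their probe sets may share signal.

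Chlorophyll genes followed with 12 of 25 synthesis genes lower and 1 higher. PORC, a light-dependent protochlorophyllide reductase, fell to 39.4, 34.1 and 40.9 in darkness, against 314, 509 and 527 in light (-3.53 ± 0.25, adjusted p = 2.1e-07), and HEMA1, which opens the pathway, rose to 48.5, 52.8 and 61.9, against 22.6, 26.5 and 33.1. Of the 11 breakdown genes PPH and PAO, which strip and open chlorophyll, rose, and CLH1, a chlorophyllase, fell to 24.7, 28.3 and 20.5, against 526, 868 and 757, with SGRL, RCCR and CLH2. Of 22 light-harvesting genes 8 fell and 1 rose. LHCA6 fell to 29.3, 28.5 and 27.1, against 124, 251 and 249, LHCB3 to 378, 428 and 548, against 1004, 1549 and 1340.1, and LHCB1.4 rose to 167, 224 and 319, against 15.7, 72.6 and 53.8.

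**Figure D2:**
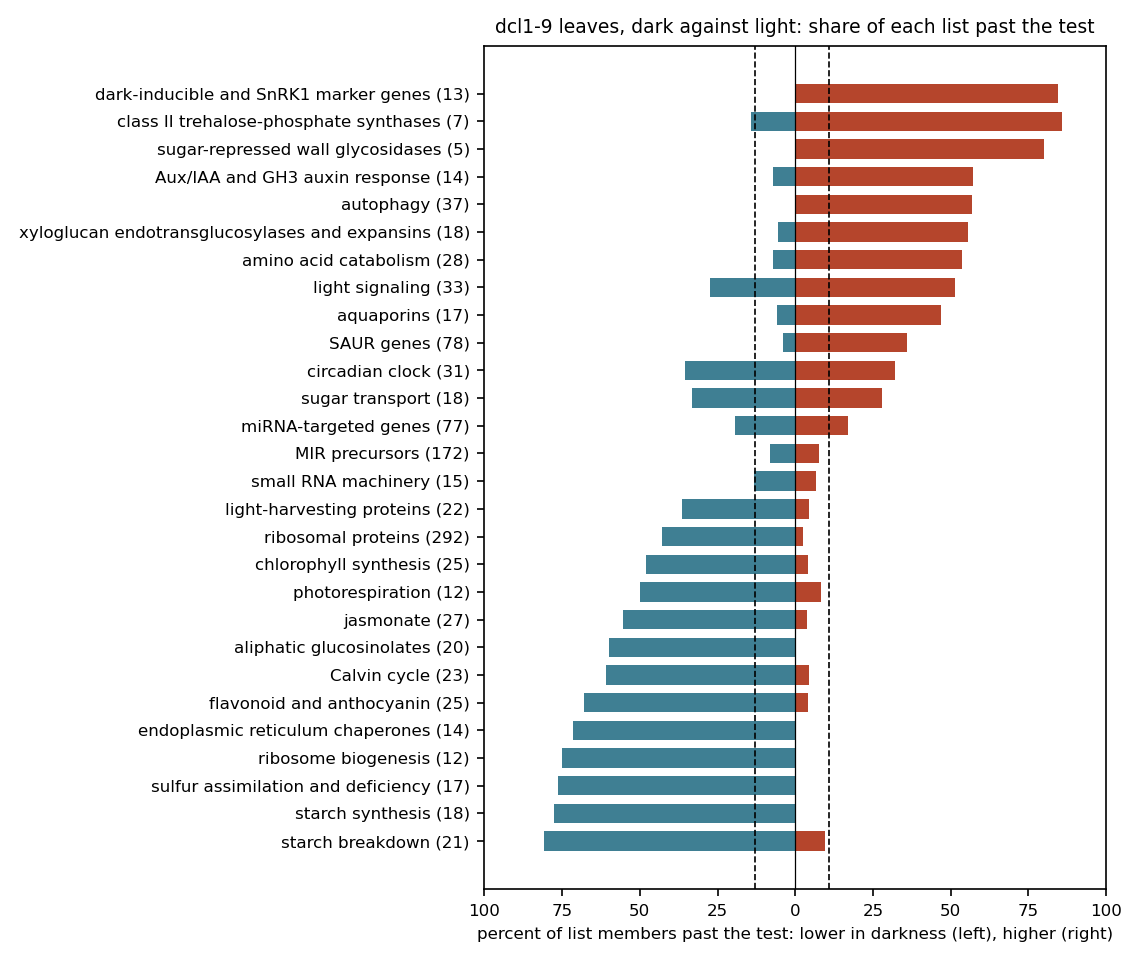
Share of the members of 28 gene lists (number of members in brackets) that passed the test in dcl1-9 leaves, as lower in darkness to the left and higher to the right of 0. Dashed lines mark the shares over all probe sets, 12.9% lower and 10.8% higher, and starch breakdown lies furthest to the left with 17 of 21 members lower.

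Of 33 light signaling genes 17 rose and 9 fell. The photoreceptor PHYA, degraded as protein in light, read 254, 217 and 249 on the dark arrays, against 38.2, 47.6 and 39.4 on the light arrays (2.53 ± 0.18, adjusted p = 2e-07). Next to HFR1, the shade-response genes PIL1 and PAR1 rose to 372, 267 and 266 and 72.5, 59.3 and 126, against 38.6, 30.5 and 35.1 and 8.23, 8.15 and 7.41 in light, and HAT1, a homeodomain factor of that response, to 197, 178 and 269, against 30.04, 28.7 and 43.7. The growth-promoting PIF4 and PIF5 rose (1.26 ± 0.19 and 0.95 ± 0.19), and PIF7 fell to 41.6, 36.3 and 36.5, against 128, 108 and 115. HYH, a bZIP factor of light-grown seedlings, fell to 2.92, 2.08 and 3.22, against 23.8, 19.7 and 26.2, while its relative HY5 overlapped between treatments. The blue-light receptor gene PHOT1 rose (1.43 ± 0.18) and PHOT2 fell (-1.59 ± 0.26).

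Clock genes were divided, 10 of 31 rising and 11 falling. The counts shrank with 1 array fewer, to 6 and 5 without dark replicate 3, and to 5 falling without light replicate 2 and 6 without dark replicate 1. The dawn genes CCA1 and LHY did not pass, at 16.5, 33.9 and 27.8 and 15.2, 20.9 and 20.4 in darkness, against 20.8, 30.5 and 18.6 and 14.2, 15.5 and 15.2 in light. The evening genes ELF4 and GI fell, ELF4 to 26.2, 34.9 and 32.5, against 134, 157 and 157, and GI to 164, 169 and 177, against 305, 368 and 336. LNK1, an activator of afternoon genes, fell to 16.6, 16.4 and 11.8, against 86.7, 113.8 and 96.4 (-2.74 ± 0.26), and CDF5, a DOF repressor of flowering, rose to 58.3, 53.9 and 105.2, against 6.62, 6.37 and 9.40 (3.23 ± 0.26).

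Many genes of auxin response rose. SAUR genes, small auxin-induced transcripts, counted 28 higher and 3 lower of 78, of which 46 had a mean under 20. At4g38825 read 183, 149 and 335 in darkness, against 4.91, 12.9 and 6.53 in light, and SAUR22 75.2, 107 and 104, against 2.79, 5.15 and 3.92. Neighbouring SAUR genes are near-copies of each other, so single values may be shared between them. Of 14 Aux/IAA and GH3 genes 8 rose and 1, IAA17, fell. IAA29, a repressor of auxin responses, read 204, 209 and 226, against 7.21, 8.90 and 10.9 (4.58 ± 0.19, adjusted p = 2.6e-09), and GH3.5, which conjugates auxin to amino acids, 718, 698 and 556, against 55.5, 38.2 and 47.9.

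Among 18 xyloglucan enzymes and expansins 10 rose and 1 fell. EXPA8, an expansin, rose to 460.3, 536 and 754 in darkness, against 6.76, 28.4 and 48.6 in light, and EXPA5 fell to 51.4, 39.4 and 45.7, against 193, 230.1 and 216. Of the 5 sugar-repressed wall glycosidases 4 rose, among them BGAL4 to 125, 165 and 313, against 7.97, 14.5 and 14.5, and BXL4 to 1031, 985 and 1235, against 58.2, 116 and 141, and BGAL2 did not pass at 249, 195 and 296, against 159.8, 185 and 253. These glycosidases were listed as genes repressed by sugar, so their direction followed largely from the choice of list. Of 17 water channels 8 rose and 1 fell. TIP2;1 of the vacuole membrane read 2352, 2091 and 2658, against 323, 445 and 537 (2.47 ± 0.21), PIP1;3 of the plasma membrane 557, 461 and 768, against 50.4, 73.2 and 74.8 (3.16 ± 0.27), and PIP2;5 fell to 6.51, 8.87 and 6.34, against 63.3, 38.4 and 54.2.

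Most pigment genes fell. Of 25 flavonoid and anthocyanin genes 17 fell and 1 rose. DFR, an enzyme of anthocyanin synthesis, read 8.15, 9.02 and 8.24 in darkness, against 257, 295 and 66.9 in light (-4.34 ± 0.84, adjusted p = 0.0013), and CHS, which opens the pathway, 16.2, 16.04 and 15.1, against 319.7, 134 and 84.2. The light arrays were uneven, the highest exceeding the lowest 4.41-fold for DFR, and without light replicate 1 the list counted 11 lower. MYBL2, a repressor of the pathway, rose to 194, 207 and 269, against 22.8, 33.2 and 35.2 (2.89 ± 0.22).

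Of 27 jasmonate genes 15 fell and 1 rose. LOX2, the lipoxygenase at the head of synthesis in leaves, read 266, 578 and 212 in darkness, against 3296, 3322 and 2882 in light (-3.305 ± 0.44), AOS, the next enzyme, 228, 267 and 181, against 1606, 1414 and 1085, and AOC2 15.8, 18.6 and 20.2, against 204, 225 and 258. JAZ11, one of the repressors of jasmonate responses, rose (0.79 ± 0.17). Aliphatic glucosinolate genes counted 12 lower and 0 higher of 20, and dark replicate 2 lay above the other dark arrays for the members below. CYP83A1, an enzyme of their core structure, read 91.5, 325 and 56.6 in darkness, against 581, 738 and 532 in light (-2.36 ± 0.61, adjusted p = 0.01), and MAM1, which extends methionine, 62.9, 215 and 50.3, against 310.3, 305 and 234 (adjusted p = 0.071). Without dark replicate 3 the list counted 7 lower and CYP83A1 did not pass (adjusted p = 0.06 without dark replicate 3), while MAM1 passed without dark replicate 2 (adjusted p = 0.016) and with the replicate number as a block (adjusted p = 0.012). PR1, a marker of salicylate signaling, varied from 7.38 to 59.2 within darkness and from 15.4 to 58.3 within light.

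Of 20 genes of abscisic acid and cold 6 fell (30%), 2 rose (10%) and 12 did not pass. COR15A, a chloroplast protein of cold-hardened leaves, read 212, 231 and 204 in darkness, against 1909.8, 1751 and 1449 in light (-2.97 ± 0.26), and COR15B 22.7, 26.0 and 22.4, against 126, 325 and 306, while NCED3, which makes the abscisic acid precursor, rose to 42.5, 49.4 and 44.0, against 22.8, 19.2 and 13.5. Of 10 iron genes 5 fell and 2 rose. The regulators bHLH100 and bHLH39 fell, bHLH100 to 6.09, 4.75 and 8.72, against 77.6, 249.9 and 183, and bHLH39 to 6.20, 7.28 and 6.01, against 44.2, 118 and 70.9. FRO6, a ferric reductase of shoots, rose to 632, 532 and 634, against 23.4, 91.7 and 179, its light arrays spreading 7.66-fold. The rise of FRO7, a gene of the same family, lost its call with 1 array fewer (adjusted p = 0.082 without light replicate 1, 0.066 without dark replicate 1, 0.087 without dark replicate 2, 0.069 without dark replicate 3).

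Transcripts of the protein-making machinery fell in part. Of 292 genes annotated as ribosomal proteins 125 fell and 7 rose, with a median log2 difference of -0.44. The 7 were 4 without light replicate 1, as without dark replicate 2 or dark replicate 3. Of 12 genes of ribosome biogenesis 9 fell and none rose, as FIB2, a fibrillarin, at 59.2, 64.2 and 54.9 in darkness, against 207, 146 and 129.8 in light, and NOP56 at 385, 314 and 225, against 867, 632 and 621. Of 14 chaperones of the endoplasmic reticulum 10 fell and none rose. PDIL1-2, a protein disulfide isomerase, read 170.3, 180.0 and 135, against 467, 540.2 and 418 (-1.56 ± 0.23).

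Sulfur genes fell in dcl1-9, and several responded differently from WT. Of 17 genes of sulfate uptake, assimilation and the response to sulfur shortage 13 fell in dcl1-9 and 0 rose (median -1.86), and in WT 8 fell, where 14.5% of all probe sets did (median -0.50). BGLU28, a beta-glucosidase induced by sulfur shortage, read 18.6, 19.3 and 15.2 on dcl1-9 dark arrays, against 862, 472 and 567 on dcl1-9 light arrays, and 16.9, 5.93 and 12.5 on WT dark arrays, against 10.3, 14.2 and 13.0 on WT light arrays. SDI1, a repressor of glucosinolate synthesis, read 27.6, 32.7 and 16.5 in dcl1-9 darkness, against 502, 328 and 365 in dcl1-9 light, and 18.0, 15.9 and 16.2 in WT darkness, against 11.5, 12.2 and 25.4 in WT light. Only the dcl1-9 light arrays were high for these genes, and the dark arrays of both genotypes lay at similar low values. The test of the difference between the responses was passed by 5 of the 17 genes, beside 0.104% over all probe sets, namely BGLU28 (dcl1-9 minus WT -4.93 ± 0.46, adjusted p = 0.0004), SDI1 (-4.12 ± 0.43), GGCT2;1 (-3.31 ± 0.39), SHM7 (-1.998 ± 0.30) and SDI2 (-1.895 ± 0.32). With each of the 12 arrays left out in turn SDI2 lost that call in 10 of the fits (adjusted p = 0.056 to 0.15), keeping it without WT light replicate 1 and without dcl1-9 light replicate 2. SHM7 lost it in 3, without light replicate 3 or dark replicate 1 of dcl1-9, or dark replicate 1 of WT (adjusted p = 0.054 to 0.062). The sulfur list was chosen with earlier results of these data known, so the count of 5 of 17 is a description and not independent support. GGCT2;1 degrades glutathione and SHM7 is a serine hydroxymethyltransferase. LSU1, a small protein of the same shortage response, read 14.0, 14.7 and 7.29 in dcl1-9 darkness, against 219, 149 and 236 in dcl1-9 light (-4.11 ± 0.42), and APR3, an adenylylsulfate reductase, 51.3, 40.7 and 30.6, against 393, 264 and 303. Their difference from WT did not pass (adjusted p = 0.086 for LSU1 and 0.5 for APR3). ATPS1, an ATP sulfurylase, read 374, 370.2 and 401, against 419, 364 and 364, with overlapping arrays.

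**Figure D3:**
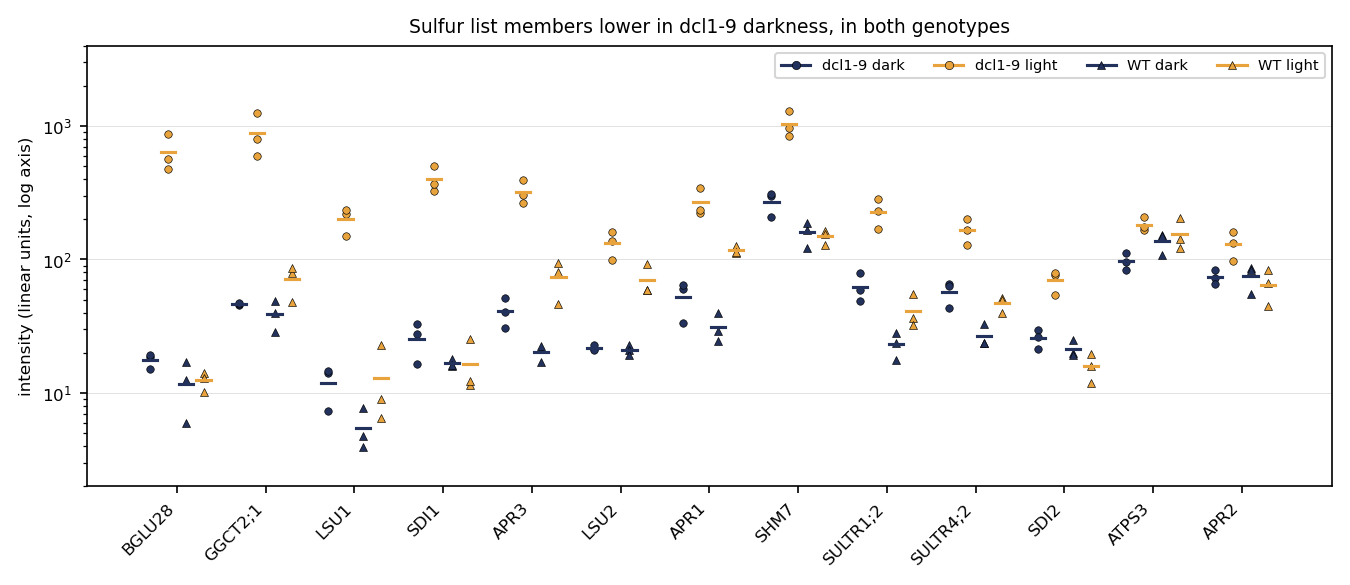
Intensity (linear units, log axis) of the 13 sulfur genes that fell in dcl1-9 darkness, by array, for dcl1-9 (circles) and WT (triangles) in darkness (dark blue) and light (orange). Lines are means of 3 arrays, and for BGLU28 the dcl1-9 light arrays, at 472 to 862, stand above the other 9 arrays.

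MIR precursors changed in both directions. Of 172 precursors 13 rose and 14 fell, a share of 7.56% and 8.14% beside 10.8% and 12.9% over all probe sets. Only 58 had a mean of at least 20 over the 6 dcl1-9 arrays, and of these 11 rose and 11 fell. The largest log2 difference upward was that of MIR172A and downward that of MIR157C, and for these, as for MIR171b, the study designed primers on the precursor transcript, printed here 5′ to 3′ to show which transcripts are meant.
MIR172A forward: atctgttgatggacggtggt
MIR172A reverse: aatagtcgttgattgccgatg
MIR157C forward: acaccgcatgtggatgataa
MIR157C reverse: ggttctctctctttctctccctct
MIR171b forward: tgcaaggtaacgcgagatatt
MIR171b reverse: atcgaacaacaccgttctcc
They were not used in these array data.

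MIR172A, on chromosome 2, read 880.3, 967 and 853 on the dark arrays, against 208, 256 and 208 on the light arrays (2.01 ± 0.21, adjusted p = 7.3e-06). MIR172b moved the other way, to 11.6, 15.5 and 7.79 in darkness, against 27.6, 44.1 and 46.0 in light (-1.78 ± 0.33). MiR172 acts on AP2-type flowering repressors, and of these TOE1 fell to 132, 162 and 120.99, against 424, 336 and 273, while AP2 overlapped at 132, 79.6 and 101, against 127, 82.5 and 104.5. MIR157C, on chromosome 3, read 11.7, 11.5 and 10.3, against 95.3, 106 and 112 (-3.22 ± 0.23, adjusted p = 1.8e-07), whereas MIR156c and MIR156d, precursors of a close relative of miR157, rose to 95.9, 103 and 87.1 and 55.4, 61.0 and 79.6, against 30.5, 39.0 and 42.8 and 36.1, 27.2 and 49.0. Of the SPL factors under these miRNAs, SPL9 fell to 28.6, 28.1 and 27.3, against 107, 119 and 129, as did SPL11 and SPL15, and SPL2 rose to 644, 562 and 550.4, against 451, 382 and 313. The 2 precursors of miR393 also parted, MIR393b at 173, 213 and 194, against 68.4, 81.5 and 98.9, and MIR393a at 22.0, 33.1 and 31.6, against 42.9, 75.1 and 75.3. Calls were lost with 1 array fewer for MIR156d (adjusted p = 0.076 without light replicate 2, 0.075 without dark replicate 3) and MIR393b (adjusted p = 0.056 without light replicate 1, 0.053 without dark replicate 2). Of the auxin receptors under miR393, AFB1 rose to 202, 189.5 and 211, against 27.3, 39.1 and 53.4, and TIR1 to 601, 571 and 679.8, against 269.5, 316 and 372, and AFB2 read 199, 199 and 257, against 205, 202 and 209. The targets named beside precursors, here and below, are single members of their families, some chosen after their values were seen. They do not stand for the families as a whole.

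MIR171b rose to 289.8, 192 and 298 in darkness, against 57.6, 61.8 and 81.3 in light (1.95 ± 0.41). MIR398C, whose miRNA acts on copper proteins, fell to 96.2, 77.3 and 56.2, against 489.6, 372 and 389 (-2.47 ± 0.29), and the superoxide dismutase genes CSD1 and CSD2 under it read 528, 581 and 736 and 349, 314 and 436, against 585, 661 and 621 and 348, 377 and 441. MIR395e, whose miRNA acts on ATP sulfurylases and a sulfate transporter, fell to 16.1, 6.26 and 3.31, against 86.4, 38.4 and 78.4 (-3.20 ± 0.47). In WT it differed by -0.30, and the difference between genotypes did not pass (-2.90 ± 0.66, adjusted p = 0.16). Of the other precursors that rose, MIR822, MIR830, MIR419, MIR404, MIR169j, MIR861, MIR472 and MIR167a had log2 differences from 0.73 (MIR167a) to 1.57 (MIR830). Of those that fell, MIR864, MIR163, MIR775A, MIR159A, MIR160a, MIR849A, MIR402, MIR779 and MIR161 had differences from -1.64 (MIR864) to -0.74 (MIR161). Of these, MIR169j lost its call whichever dcl1-9 array was left out (adjusted p = 0.057 to 0.15), and MIR402, MIR849A and MIR161 without some (adjusted p = 0.052 to 0.083, adjusted p = 0.073 to 0.1 and adjusted p = 0.051 to 0.076). In 4 of the 27 called precursors the mean of the brighter group was still under 20. MIR824A and MIR159B, which the study followed as well, read 212, 163 and 157 and 155, 153 and 111, against 219, 167 and 141 and 189, 188 and 150.4, and did not pass. None of the precursors passed the test of a different response in dcl1-9 and WT.

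**Figure D4:**
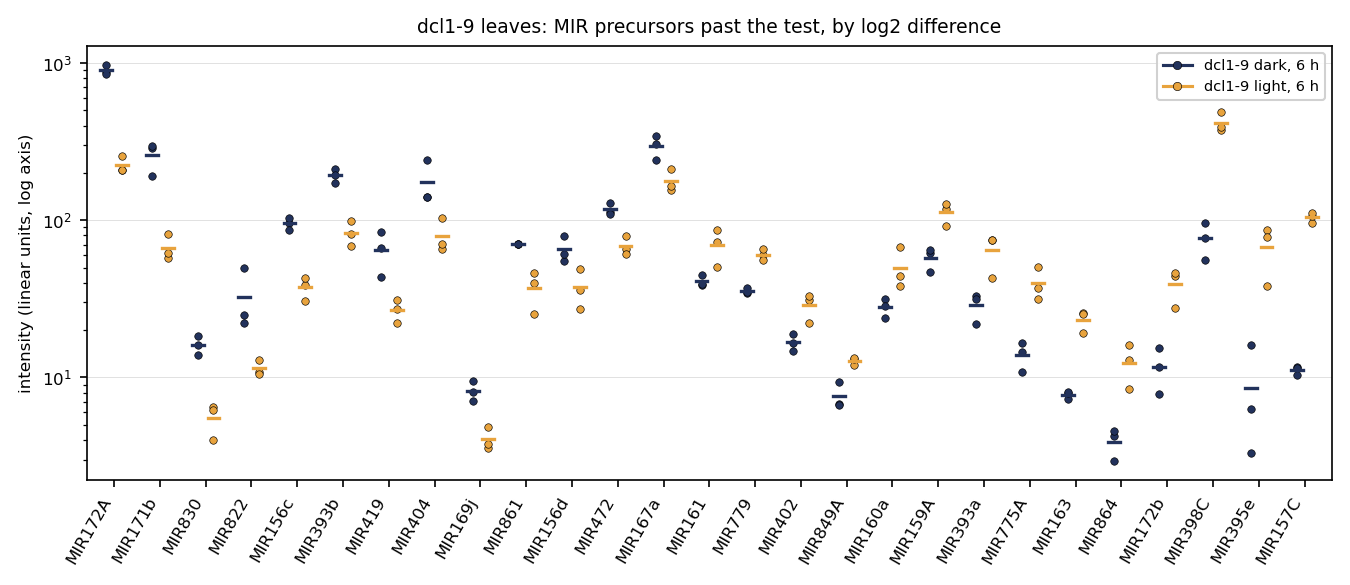
Intensity (linear units, log axis) of the 27 MIR precursors past the test in dcl1-9 leaves, ordered by log2 difference from MIR172A (2.01) to MIR157C (-3.22). Points are single arrays and lines are means of 3 dark and 3 light arrays.

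Of 77 genes known as miRNA targets 13 rose (16.9%) and 15 fell (19.5%), beside 10.8% and 12.9% over all probe sets, and 49 did not pass. ORE1, a target of miR164, had the largest rise among them. GRF4 of the miR396-regulated growth factors fell to 18.0, 15.8 and 17.4 in darkness, against 124, 85.7 and 96.4 in light (-2.56 ± 0.21), while GRF3 rose to 111, 112 and 116, against 39.2, 41.4 and 30.1. Of the leaf-shaping TCP factors under miR319, TCP2 fell to 256, 278 and 226, against 597, 482 and 513, TCP3 to 619, 573 and 559.8, against 1168, 1067 and 901, and TCP4 to 93.4, 87.0 and 92.7, against 152, 131 and 118. The call of TCP4 was lost with 1 array fewer (adjusted p = 0.074 without light replicate 1, 0.059 without dark replicate 2). TCP10 read 593, 584 and 583, against 668, 548 and 532, and TCP24 184, 215 and 208, against 202, 171 and 192, and neither passed. In the small RNA machinery 1 of 15 genes rose, DCL1 itself (0.54 ± 0.18, adjusted p = 0.047, and adjusted p = 0.1 without light replicate 2, 0.17 without light replicate 3, 0.15 without dark replicate 1, 0.14 without dark replicate 2), and 2 fell. AGO7, which carries miR390 to trans-acting RNA precursors, fell to 14.9, 13.7 and 8.84, against 108, 88.4 and 80.7 (-2.91 ± 0.22), and HEN1, which methylates miRNAs, to 36.6, 26.3 and 26.4, against 60.2, 64.4 and 56.0. AGO1, the main miRNA carrier, read 211, 191 and 172, against 163, 167 and 156, and did not pass. Of the 24 genes the study followed by name 7 rose and 12 fell, and most of them are described above.

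The dark response of dcl1-9 was tested against that of WT in the same fit. The difference passed for 29 genes, 0.104% of those tested, and 5.73% had an unadjusted p under 0.05. With 3 arrays per group, a difference that did not pass does not show equal responses. By unadjusted p, 13 of 28 amino acid catabolism genes differed (median response 0.77 in dcl1-9 and 1.66 in WT). So did 12 of 20 aliphatic glucosinolate genes (median -1.45 and -2.31), but 0 of 37 autophagy genes. As given above, dcl1-9 dark replicate 2 lay above the other dark arrays for the glucosinolate genes named. At that threshold 7 of 18 sugar transporters, 7 of 21 starch breakdown genes and 6 of 31 clock genes differed too. The lists given here are a selection of the 46. None of the genes so counted passed after adjustment. With the replicate number as a block 67 genes passed the adjusted test. With 1 of the 12 arrays left out the number lay between 8, without dcl1-9 dark replicate 1, and 39, without WT light replicate 2 or WT dark replicate 2. In 25 of the 29 the response was more downward in dcl1-9 (0.0898% of all tested) and in 4 it was more upward (0.0144%). Of these genes 10 fell in dcl1-9 without passing the test in WT, 6 fell in both and 6 rose in both. Another 2 fell in dcl1-9 and rose in WT, past both tests. The other 5 did not pass in dcl1-9, and of them 4 rose and 1 fell in WT. Among the 10, mean WT light values were 12.5 for BGLU28, 15.8 for SDI2, 16.4 for SDI1, 19.8 for At1g12030 and 22.2 for LTL1, but 149 for SHM7. Where WT light reads that low, a fall in WT could hardly be seen, so these calls do not show that WT lacks it. Next to the sulfur genes, At1g12030 fell to 14.5, 14.99 and 14.6 on dcl1-9 dark arrays, against 98.9, 104.7 and 123 on dcl1-9 light arrays, with WT at 22.4, 11.03 and 17.3 in darkness, against 17.4, 19.2 and 22.7 in light. At1g73325, annotated as a Kunitz protease inhibitor, fell to 13.5, 10.4 and 10.4, against 311, 361 and 336, with WT at 16.7, 14.7 and 16.6 in darkness, against 103, 63.0 and 42.3 in light (-2.86 ± 0.36). LTL1 and CSLG3 of the largest falls were also among them (-4.16 ± 0.66 and -2.76 ± 0.46), though with single arrays left out LTL1 and CSLG3 lost that call (adjusted p = 0.056 to 0.096 and adjusted p = 0.072 to 0.13).

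Some genes that rise in WT darkness rose less or not at all in dcl1-9. At2g25770, annotated as a polyketide cyclase-like protein, read 19.9, 22.2 and 22.8 in dcl1-9 darkness, against 16, 17.6 and 15.8 in dcl1-9 light, and 233, 161 and 240.1 in WT darkness, against 23.6, 17.4 and 22.1 in WT light (-2.92 ± 0.27, adjusted p = 0.0004). At5g60260, of unknown function, read 16.8, 19.2 and 23.5 in dcl1-9 darkness, against 13.1, 11.6 and 12.8 in dcl1-9 light, and 139, 106 and 127 in WT darkness, against 14.9, 18.7 and 20.5 in WT light (-2.13 ± 0.27). Within dcl1-9, At2g25770 did not pass the limma test (adjusted p = 0.16) and At5g60260 rose (adjusted p = 0.021). The call of At5g60260 was lost without light replicate 2 (adjusted p = 0.072) or dark replicate 3 (adjusted p = 0.1). In the other direction, At1g21440, annotated as a phosphoenolpyruvate carboxylase family protein, fell less in dcl1-9, to 62.2, 79.9 and 68.2 in darkness, against 158, 172 and 185 in light, than in WT, at 47.1, 50.04 and 47.7, against 349, 389 and 332 (1.58 ± 0.20). Of the starvation markers DIN3 and SEN5 had the smallest p for such a difference, with -1.25 ± 0.31 and -1.06 ± 0.32, and neither passed (adjusted p = 0.21 and 0.42).

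**Figure D5:**
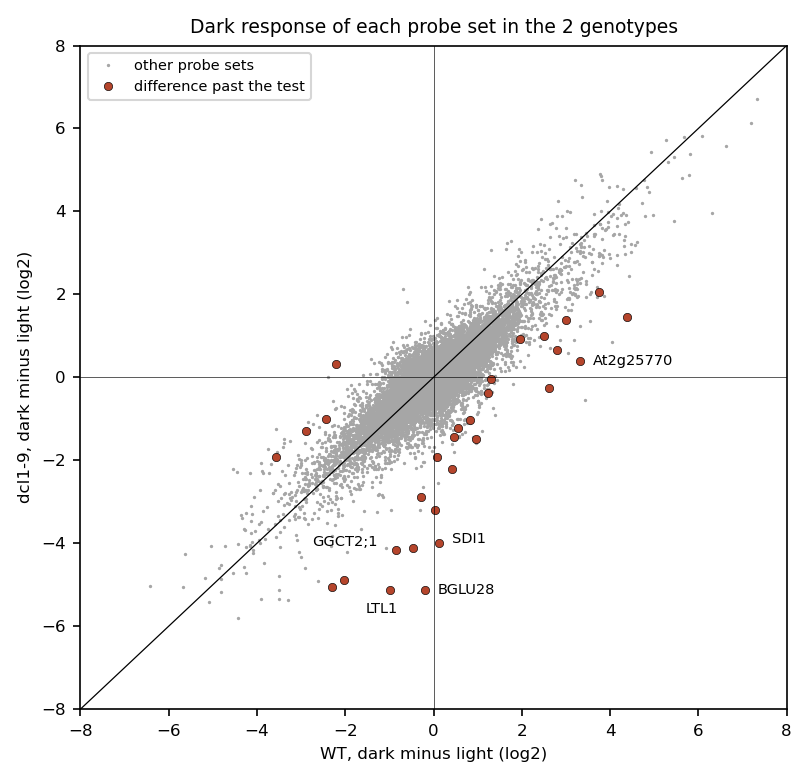
Log2 difference, dark minus light, of each of 27827 probe sets in dcl1-9 (vertical axis) and in WT (horizontal axis), with equal responses on the diagonal. Red points are the 29 genes past the test of the difference, 25 of them below the diagonal, with BGLU28 at -5.13 in dcl1-9 and -0.20 in WT.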

How the data were processed

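Detached leaves of dcl1-9 and WT plants, held in darkness or light for 6 h, were hybridised to Arabidopsis Gene 1.1 ST arrays, 3 labelled biological replicates per group. The deposited values are linear intensities, 1 per gene: the authors checked the arrays with Affymetrix Expression Console, then normalised them in dChip to a baseline array over an invariant set and summarised the perfect-match probes per locus with a custom probe file from Brainarray. The authors' table of fold changes, their bounds and filter marks was not used, and 0 sample columns were left out for lack of a label. Such scaling assumes that most genes do not change, and the depth is the number of arrays, which limits the precision.

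Intensities under 1 were set to 1 and log2 values were fitted with limma 3.58.1 in R 4.3.3, over all 12 arrays with 4 groups, moderated variances with an intensity trend (8 residual degrees of freedom) and a threshold of 0.05 on p-values adjusted by Benjamini-Hochberg across 27827 probe sets. The difference between responses was the interaction contrast, dcl1-9 minus WT, and it shares no arrays between the genotypes. On simulated data for the dcl1-9 comparison, run on 27827 genes, 60% of the 100 genes given a log2 change of 1 and 100% of the 100 given a change of 2 were recovered, with 10 false calls. No other genes were changed there, whereas 6596 passed in the data, and the simulated noise was independent between arrays. The recovery and false calls therefore describe that setting only. Recovery of differences between the genotypes was not simulated. Names came from hand-written lists for 750 probe sets, from RefSeq for 9855 and from the deposited table for 190, and 17032 had only a locus code.

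Samples with the same replicate number deviated together in dcl1-9 (r = 0.24, 0.30 and 0.30 for dark and light pairs of the same number) and less so in WT (r = 0.039, 0.24 and 0.20), across genes, which are not independent replicates. The numbers come from the sample labels. The 46 gene lists, 3 annotation rules and the part described were chosen with earlier results of these data known. Genes named were the 12 largest rises and falls past the test with arrays apart and a mean of at least 100 in the higher group, list members (any from lists of up to 12, otherwise up to 6 with the largest change and those against the majority), called MIR precursors, genes the study followed and the 8 smallest p for the difference. Those named beyond the rule (AFB2, AGO1, AP2, ATPS1, CCA1, CSD1, CSD2, DIN2, DIN3, DIN9, DIN10, GI, HY5, LHY, MAM1, PHOT1, PIF4, PIF5, PR1, SDI2, SHM7, SPL11, SPL15, SS3, TCP3, TCP10, TCP24 and TOE1) were chosen after their values were seen. Alternatives were another offset, 2 further normalisations, a filter on dim probe sets, no variance trend, a test against 1.2-fold, the dcl1-9 arrays alone, the replicate block, a 90% bound on the ratio, and each array left out.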

Additional observations from a re-analysis of the deposited data

Results flagged for a closer look

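The genes named above whose dark response differed between genotypes (limma interaction contrast, adjusted p under 0.05) have a log2 difference, dcl1-9 minus WT, of -4.93 for BGLU28, -4.16 for LTL1, -4.12 for SDI1, -3.31 for GGCT2;1, -2.92 for At2g25770, -2.86 for At1g73325, -2.76 for CSLG3, -2.61 for At1g12030, -2.13 for At5g60260, -1.998 for SHM7, -1.90 for SDI2 and 1.58 for At1g21440. With each of the 12 arrays left out in turn, SDI2 lost the call in 10 fits, CSLG3 in 8, LTL1 in 6 and SHM7 in 3, and the other 8 genes in none. What lies behind these differences was not tested.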

How the results depend on the processing

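The dcl1-9 counts of 2997 genes higher and 3599 lower in darkness stayed within 1.5 times under each alternative counted except the test against 1.2-fold, which gave 1794 higher and 2316 lower. Fits without a WT array were not counted for this comparison. With single dcl1-9 arrays left out the counts ranged from 2335 to 2764 higher and from 2870 to 3187 lower. With the replicate block they were 3836 and 4394, and a 90% lower bound of the ratio over 1.2 gave 3327 and 3818. The 29 genes with a different response in dcl1-9 and WT depended more on the setting: 66 with log2(value + 16), 15 without the intensity trend, 19 against 1.2-fold, 67 with the replicate block, and 8 to 39 with single arrays left out. All 29 were among the 66, and 28 were among the 67. Beside MAM1, the block changed no other call of a named gene. Of 207 named genes 22 changed their call in some setting, 18 of them losing it in the test against 1.2-fold, and none reversed its direction past the test. The cause of these changes was not tested. Dim probe sets limit the precision, since only 58 of the MIR precursors had a mean of at least 20 over the 6 dcl1-9 arrays. With probe sets under a mean of 20 over all 12 arrays left out and the rest fitted again, 9 of the precursors were called as lower, against 14 without that filter.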
